A study of Bos taurus with 72 samples.

Results

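The most abundant genes without an annotation were examined in bovine mammary epithelial cells (BMECs) after 6 h in media that differed in their essential amino acids (EAA). The deposited table lists 29550 genes, 27570 of them under Ensembl identifiers of the cow and 1980 under a name made of 1 word, a full stop and a running number. These 1980 unannotated genes were ranked by their mean FPKM (fragments per kilobase of gene, scaled to the size of the library) over all libraries, and the 200 highest were taken, so the genes were selected on their measured level and that level is a description only. They are called here by their running number alone. Gene 160 was the highest, and gene 1896, with a mean of 2.316 FPKM and a range of 1.497 to 6.56 FPKM over the libraries, was the last inside the limit. Gene 131, with a mean of 2.304 FPKM and a range of 0 to 5.29 FPKM, was the first outside it. A ranking by the median in place of the mean kept 198 of the 200, and leaving any 1 of the 12 treatments out of the ranking kept between 197 and 200.

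The study had 72 libraries from 12 treatments with 6 replicates each. NEG medium held no EAA, POS medium held all 10 of them, and each other treatment was NEG medium with only arginine (Arg), histidine (His), isoleucine (Ile), leucine (Leu), lysine (Lys), methionine (Met), phenylalanine (Phe), threonine (Thr), tryptophan (Trp) or valine (Val) restored to its level in POS. All groups share primary BMECs of a low passage from the mammary tissue of dairy cows, freed of fibroblasts by their sensitivity to trypsin and kept without serum overnight before treatment. The labels do not say that replicates came from separate animals or cultures, so the p-values measure the spread between these libraries, which may be technical, while the study calls the replicates biological and describes seeded cells that were assigned to the media. The identifiers in the table could not be paired with gene symbols, so the cell type was not checked against its markers.

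An unannotated gene in such a table comes from the assembly of mapped reads into transcripts, as StringTie does, where a locus matches no gene in the reference annotation. Loci of this kind are known to include long noncoding RNAs, protein-coding genes that the annotation lacks, antisense transcripts, and unannotated ends or retained parts of known genes. The deposited table gives no coordinates and no sequence for them, so none is printed here, and their functions are not known from these files. Where such a locus overlaps a known gene on the same strand, the strand of a read cannot tell the 2 apart. On opposite strands it can only if counting used the strand, which the sources used here do not state. EAA are known to act on gene expression in mammary epithelium through the kinase complex mTORC1, which is active when amino acids are plentiful, and through the kinase GCN2, which senses uncharged transfer RNA when they are scarce.

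Between 12006111 and 18602430 reads were counted on genes per library, with a median of 15865514.5. Of these reads the 200 genes held 0.668% over all libraries, and they held 79.9% of the reads of all unannotated genes. Over the 12121 genes with a mean of at least 1 FPKM, 5 libraries lay farthest from the median profile of their own treatment, at a root mean square distance of 1.52 on the log2(FPKM + 1) scale for Leu_1, 1.1995 for Arg_4, 1.09 for POS_4, 0.729 for Val_3 and 0.590 for NEG_2, and the next was Ile_1 at 0.561. Val_3 went against its label, with a mean correlation of −0.48 with the other Val libraries and of 0.61 with the Phe libraries, both on deviations from the mean of all libraries. Smaller values below 0 with their own treatment, from −0.16 to −0.02, were found in Arg_4, Lys_1, Trp_1, His_1, Met_6, Met_1 and Trp_3, of which Trp_1, Trp_3, Met_1 and Met_6 were closest to the Thr libraries (0.47 to 0.72). The counts of genes called are given with and without these 5 libraries, which were chosen after their values were seen.

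The levels of the 200 genes fell steeply with rank. Gene 160 had a mean of 580.2 FPKM, which placed it 113th of all 29550 genes and gave it 19.3% of the summed FPKM of the 200. The 10 highest held 50.7% of that sum. A mean of at least 100 FPKM was found in 5 genes, at least 50 in 10, at least 10 in 56 and at least 5 in 100, and the median was 5.01 FPKM. The lengths recovered from the FPKM ran from 238 to 24120 bp with a median of 2081.5 bp. Of the 200, 21 were under 500 bp and 35 over 5000 bp. In 62 genes the median library held fewer than 100 reads. The SD between replicates of a treatment, as the median over genes, was 0.34 on the log2(FPKM + 1) scale against 0.30 in the 10334 annotated genes with at least the mean FPKM of gene 1896, and 0.23 against 0.20 without the 5 libraries. The spread was smallest in gene 1036 (0.10) and largest in gene 707 (1.01), which was at 0 in Leu_1 and at 111.9 FPKM in NEG_2.

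**Figure D1:**
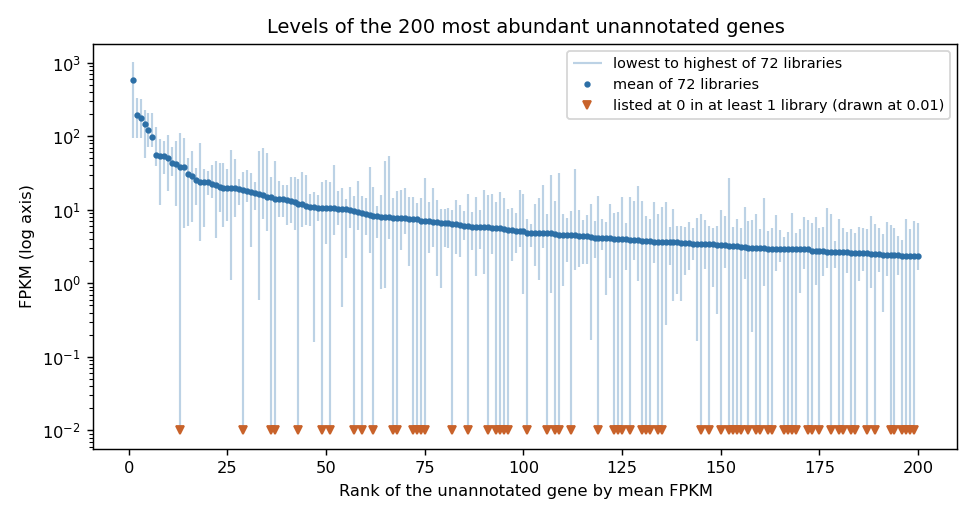
FPKM on a log axis of the 200 most abundant unannotated genes against their rank. Points are means of 72 libraries, lines run from the lowest to the highest library, and triangles at 0.01 mark the 70 genes listed at 0 in at least 1 library. The means fall from 580.2 to 2.316 FPKM, and the genes at 0 somewhere begin at rank 13.

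Of the 200 genes, 130 (65.0%) were above 0 in all 72 libraries. The other 70 were missing almost entirely in 3 libraries, with 61 at 0 in Leu_1, 36 in Arg_4 and 12 in POS_4, while His_5 and Val_6 each missed 1 and the other libraries missed none. Leaving out Leu_1, Arg_4 and POS_4 put 199 above 0 in each of the 69 libraries that remained. Leu_1 alone accounted for the most, and without it 160 were above 0 in every library. Leu_1, Arg_4 and POS_4 had the fewest reads on genes (12006111, 12803214 and 13575591). They also had the fewest of all genes above 0 (10495, 11838 and 13537), with Ile_1 next at 15211. The study lists a lower mapping efficiency for Leu_1 and Arg_4 than for all other libraries. The part of these limits in the missing genes was not tested. Annotated genes at or above the mean of gene 1896 were above 0 in all libraries in 83.9% of cases, and 14.0% of them were at 0 in Leu_1, 5.95% in Arg_4 and 2.44% in POS_4, against 30.5%, 18.0% and 6.0% of the 200. These annotated genes had a higher median level (14.0 FPKM) than the 200 (5.01 FPKM), and the part of level in this difference was not tested. The 70 genes missing somewhere had a median length of 1055 bp and a median of 60.75 reads per library, against 3072.5 bp and 296.75 reads in the 130. Gene 707, at 37.8 FPKM, was the most abundant of the 70. At a limit of at least 1 FPKM in every library, 106 genes were left.

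The share of a library's reads that fell on the 200 genes was lowest and least spread in NEG, between 0.559% and 0.586%. In Val it was between 0.838% and 0.885% in 5 libraries and 0.6253% in Val_3. POS ran from 0.563% to 0.945%, with POS_4 the highest, and Leu ran from 0.685% to 0.794%. Phe (0.575% to 0.631%) and Thr (0.577% to 0.657%) were the closest to NEG. The summed FPKM of the 200 did not have this order. It was between 2806 and 2914 in 5 NEG libraries, 4203 in NEG_2, and 2434 in Leu_1 against 3113 to 3401 in the other Leu libraries.

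Differences between treatments were tested by limma on log2(FPKM + 1) in these 12121 genes, which include all of the 200, and p-values were adjusted over all 12121. A gene is called where its adjusted p is under 0.05. Fold changes are on this log2 scale, on which the added 1 shrinks the change of a gene at low FPKM. The ranking used the mean over all libraries and not the difference between treatments. A gene high in a single treatment can still enter the 200 through it, and 197 of them were kept when POS was left out of the ranking. The 3 lost, genes 1667, 1276 and 1896, had ranks 188, 195 and 200. Genes 38 and 1230 were lost without NEG, genes 959, 1230 and 1896 without Leu, and genes 959, 1706 and 1896 without Val. No gene above rank 188 was lost with any treatment left out. The genes lost stay in the counts below, although their place in the 200 depends on a treatment that is compared. Over the 12 treatments together, the moderated F test called 175 of the 200, where 87% of all genes tested were called, and 193 were called without the 5 libraries, where 95.7% of all genes were. Gene 160 was among the 25 not called (limma adjusted p = 0.27). Against NEG it was called in His alone (0.48, limma adjusted p = 0.045), a call kept in 3 of the 12 runs that left out a library and in 6 of 9 other settings (limma adjusted p up to 0.23). Its means ran from 420.1 FPKM in POS to 784.7 FPKM in His, with libraries at 94.4 FPKM (Leu_1) and 118.3 FPKM (Arg_4).

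In the complete medium, 85 of the 200 differed from NEG, 33 higher and 52 lower, where 32.7% of all genes tested were called, 14.3% higher and 18.5% lower. The 33 include gene 1896, which left the 200 without POS in the ranking. The 52 include genes 38 and 1230, which left it without NEG. The median log2 fold change of the 200 was −0.13, against −0.06 in the annotated genes tested. Without POS_4 and NEG_2, 110 were called, 46 higher and 64 lower, among them 83 of the 85, where 48.2% of all genes were called. A scaling by total reads moved the median of all genes by 0.12 and gave 41 higher and 45 lower, where 20.2% of all genes were called higher and 13.9% lower. In bulk libraries such as these, fewer cells of a type and less RNA per cell cannot be told apart.

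The rises and falls named here and below are the largest among genes that were called and whose ranges in both groups did not overlap. In POS 55 genes met both, and 58 had ranges that did not overlap, as did 22.1% of all genes tested. Gene 1705 had the largest rise in POS. In NEG its FPKM were 4.26 at the lowest, 4.76 at the median and 5.37 at the highest, and in POS they were 23.4, 25.9 and 54.0. The groups were far apart, and POS_4 stood above the other POS libraries, which were all between 23.4 and 26.1 FPKM. The means were 4.78 ± 0.37 FPKM in NEG and 30.1 ± 11.8 FPKM in POS (SD, n = 6), a log2 fold change of 2.37 (SE 0.18, limma adjusted p = 1.1e-06), or 2.19 without POS_4. Of the single EAA, it was called higher than NEG in Met (0.50, limma adjusted p = 0.0010), Val (0.41, limma adjusted p = 0.0043) and Trp (0.26, limma adjusted p = 0.033), with all libraries below the POS range. Outside Leu_1 (16.7 FPKM) and Arg_4 (12.9 FPKM), the highest library of the 10 single-EAA treatments was Val_2 at 8.19 FPKM, and against the mean of these treatments the log2 difference of POS was 2.13 (SE 0.12, limma adjusted p = 7.2e-24). It is also 1 of the longest of the 200, at 13971 bp.

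Genes 718, 298, 1344 and 1241 followed. Gene 718 rose from 3.05 ± 1.43 to 17.6 ± 14.3 FPKM, by 2.05 on the log2 scale (limma adjusted p = 0.0015), on 4 to 24 reads in NEG and 54 to 222 in POS. POS_4 held 46.3 FPKM of it, and without POS_4 and NEG_2 the change was 1.52. Gene 1344 rose from 10.6 ± 1.59 to 31.3 ± 19.1 FPKM, by 1.34 (limma adjusted p = 0.0019), with POS_4 at 70.0 FPKM and the other POS libraries between 19.5 and 26.2. For gene 298 the rise was 1.42 (limma adjusted p = 0.0054), from a median of 1.83 to 5.45 FPKM, and for gene 1241 it was 1.05 (limma adjusted p = 2.0e-04), from a median of 2.03 to 4.65 FPKM. In all of them the lowest POS library stood above the highest NEG library, and POS_4 was the highest POS library. Gene 1896, the last of the 200, had 1.76 ± 0.15 FPKM in NEG and 4.40 ± 1.18 FPKM in POS, but it left the 200 when POS was left out of the ranking, so these levels are a description and no test is given.

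Gene 813 had the largest fall. Its FPKM in NEG were 14.1, 15.3 and 18.5 at the lowest, median and highest library, from 290 to 470 reads, and in POS they were 0.0765, 0.285 and 0.873, from 2 to 18 reads. No POS library came near the NEG range, and the gene was close to the limit of detection in POS. The log2 fold change was −3.68 (SE 0.14, limma adjusted p = 4.7e-09), and it was −5.83 with voom on the recovered reads, where low values are not compressed by the added 1. The other falls were those of gene 708, from 12.2 ± 2.18 to 1.58 ± 1.00 FPKM (log2 fold change −2.46, limma adjusted p = 3.1e-05), gene 596, from 7.42 ± 3.06 to 0.644 ± 0.386 FPKM (−2.33, limma adjusted p = 9.5e-06), gene 168, from 8.07 ± 1.58 to 1.64 ± 1.08 FPKM (−1.89, limma adjusted p = 3.4e-04), and gene 1831, from 3.33 ± 0.39 to 0.362 ± 0.110 FPKM (−1.67, limma adjusted p = 3.0e-07). With voom they were −3.64 for gene 708, −3.89 for gene 596, −2.75 for gene 168 and −3.21 for gene 1831, so the order of these 4 depends on how low values are treated. Genes 708, 596 and 168 had no read in POS_4 and were below the lowest NEG library in all POS libraries.

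Gene 813 also fell with several single EAA. In Leu its FPKM were 3.37, 5.84 and 6.86 at the lowest, median and highest library, a fall of 1.38 on the log2 scale against NEG (limma adjusted p = 1.2e-04). In Val they were 5.43, 6.91 and 11.5, a fall of 1.04 (limma adjusted p = 4.8e-04), and the highest was Val_3. In Ile they were 7.34, 9.07 and 10.2, a fall of 0.77 (limma adjusted p = 4.5e-04). In His, Lys and Trp it was also called lower, by 0.36 to 0.43. All libraries of Leu, Val and Ile were below all NEG libraries and above all POS libraries. In Arg, 5 libraries lay between 5.50 and 7.02 FPKM and Arg_4 was at 0. The fall was 1.67 (limma adjusted p = 0.044), a call kept in 3 of the 12 runs that left out a library and in 5 of 9 other settings (limma adjusted p up to 0.13), and the fall was 1.22 without Arg_4 and NEG_2. Thr (15.9 ± 0.85 FPKM) and Met (17.8 ± 4.14 FPKM) had means next to that of NEG (16.0 ± 1.97 FPKM). Genes 708, 596 and 168 were also called lower, in 7, 7 and 4 of the single-EAA treatments. In Val their log2 fold changes were −1.75, −1.63 and −1.36 (limma adjusted p = 5.0e-04, 6.1e-04 and 0.0025). Gene 1831, in contrast, had means between 2.58 and 4.46 FPKM in all single-EAA treatments, all well above its 0.362 FPKM in POS. These comparisons with NEG share the NEG libraries.

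Among the 10 most abundant, genes 1766, 1240, 905 and 1417 were lower in POS than in NEG. Gene 1766 had FPKM of 49.2, 50.7 and 66.9 at the lowest, median and highest NEG library, and of 11.7, 17.8 and 20.3 in POS, a log2 fold change of −1.59 (SE 0.14, limma adjusted p = 4.7e-06). All 60 single-EAA libraries were above the POS range, the lowest being Arg_4 at 26.0 FPKM, and POS was lower than their mean by a log2 difference of −1.68 (SE 0.08, limma adjusted p = 1.1e-26). It rose with Ile, to a median of 72.8 FPKM (log2 fold change 0.43, limma adjusted p = 0.0028), and with Leu, to a median of 83.7 FPKM (0.51, limma adjusted p = 0.018). In Leu, 5 libraries lay between 71.98 and 91.7 FPKM, above all NEG libraries, and Leu_1 lay at 48.6 FPKM, below them. In Ile, Ile_1 at 64.7 FPKM was the 1 library that NEG_2 exceeded. Gene 1766 was not called in Lys, Met or His. Gene 1853, at rank 19, had the largest F of the 200 and was also low in POS and higher in Ile, but it was not called in Leu (0.09, limma adjusted p = 0.61). Its medians were 22.6 FPKM in NEG and 6.82 FPKM in POS (−1.53, limma adjusted p = 1.4e-06), and it rose with Ile, to 29.4 FPKM (0.46, limma adjusted p = 0.0022), and Lys, to 31.1 FPKM (0.48, limma adjusted p = 0.0010), as well as with Met (0.36, limma adjusted p = 0.0059) and His (0.24, limma adjusted p = 0.031). No POS library reached 8.4 FPKM of gene 1853, and the lowest single-EAA library was Arg_2 at 13.2 FPKM.

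Gene 1240 stood apart in POS, Met and Val. Its FPKM were 52.8, 55.2 and 77.7 at the lowest, median and highest library in NEG, 31.5, 33.0 and 35.6 in POS, and 32.7, 35.7 and 37.7 in Met. The POS and Met ranges overlapped each other and lay below all NEG libraries. The log2 fold change against NEG was −0.79 in POS (SE 0.11, limma adjusted p = 2.3e-04) and −0.69 in Met (SE 0.10, limma adjusted p = 5.0e-04). Val was on the other side, at 68.9, 74.9 and 85.5 FPKM (0.38, limma adjusted p = 0.0084), and only NEG_2 of the NEG libraries reached its range. The means of the other 8 single-EAA treatments were between 51.6 and 58.9 FPKM, with Arg_4 (40.3 FPKM) and Leu_1 (30.5 FPKM) below their replicates.

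Gene 1417 had FPKM of 28.7, 40.1 and 42.7 in NEG and rose in Val to 63.4, 78.5 and 86.3, a log2 fold change of 0.99 (SE 0.11, limma adjusted p = 4.1e-04). It was also called higher in Leu, Lys, Trp, Ile, Phe and His, by 0.43 to 0.67. In POS, 5 libraries lay between 18.0 and 21.9 FPKM and POS_4 at 52.8 FPKM. The fall of 0.65 (limma adjusted p = 0.042) passed the threshold in 2 of the 12 runs that left out a library, with an adjusted p of up to 0.084. It was 0.87 without POS_4 and 0.95 without both POS_4 and NEG_2. Gene 905 fell by 0.57 in POS (limma adjusted p = 0.031), from a median of 200.3 to 155.8 FPKM, with no overlap of the ranges. The call was kept in 10 of the 12 runs that left out a library (limma adjusted p = 0.051 without POS_5 or NEG_5) and in 6 of 9 other settings. It was 0.32 lower without POS_4 and NEG_2 (limma adjusted p = 0.0040), and 0.27 lower with the trend on gene length removed, which no longer passed the threshold (limma adjusted p = 0.074).

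The other 6 of the 10 highest had log2 differences between POS and NEG from −0.47 to 0.56 that did not pass the test. Gene 416 was the closest to it. Its NEG libraries were between 40.3 and 45.8 FPKM and its POS libraries between 48.1 and 63.5 FPKM, with POS_4 at 132.5 FPKM, so that the ranges did not overlap while the adjusted p of limma was 0.059, or 0.0075 without POS_4 and NEG_2. Genes 1536 (0.50, limma adjusted p = 0.024) and 590 (0.26, limma adjusted p = 0.015) were likewise past the threshold without these 2 libraries. Gene 416 rose in Val (0.81, limma adjusted p = 4.9e-04) and was also called higher in Trp, His, Met, Lys and Phe, by 0.20 to 0.57. Gene 880 rose in Val, to a median of 186.4 FPKM from 81.7 FPKM in NEG (0.86, limma adjusted p = 0.0062), where Val_3 alone, at 77.2 FPKM, was within the NEG range, and in Leu, to a median of 162.1 FPKM (0.85, limma adjusted p = 0.0011). It was also called higher in Met, His and Trp, by 0.56 to 0.73.

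**Figure D2:**
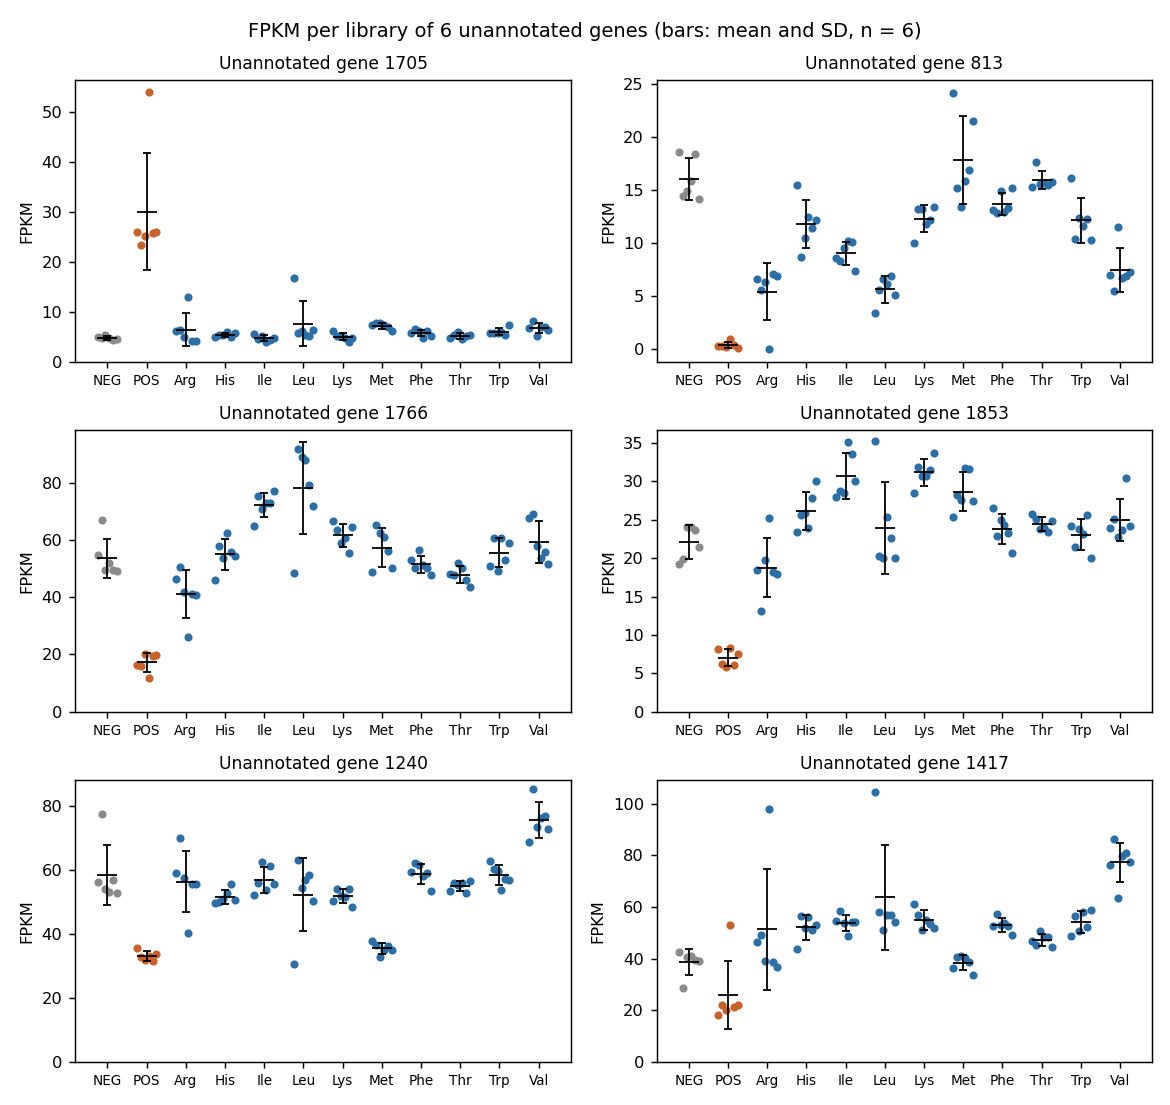
FPKM per library of 6 unannotated genes in the 12 treatments (grey NEG, orange POS, blue single EAA). Points are libraries in the order of their replicate number, and bars are the mean and SD of 6 libraries. Gene 1705 is above 23 FPKM only in POS, gene 813 is under 0.9 FPKM in all POS libraries, genes 1766 and 1853 are lowest in POS, gene 1240 is low in POS and Met and high in Val, and gene 1417 is highest in Val apart from Leu_1 and Arg_4.

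With valine, 128 of the 200 differed from NEG, the most of the 11 comparisons when each was fitted on its own 12 libraries, 77 higher and 51 lower, where 61.4% of all genes tested were called, 25.3% higher and 36.2% lower. In 1 fit of all 72 libraries Leu called the most, 136 against 121 in Val, and under the study's limits of size 35 against 31. Without Val_3 and NEG_2, 154 were called, 95 higher and 59 lower, among 79.6% of all genes. Scaling by total reads, which moved the median of all genes by 0.13, gave 91 higher and 38 lower, where 32.5% of all genes were called higher and 29.5% lower. Gene 1789 had the largest rise, from 0.241, 1.19 and 1.996 FPKM at the lowest, median and highest library in NEG to 2.93, 8.80 and 15.0 in Val (log2 fold change 2.14, SE 0.29, limma adjusted p = 4.8e-04). The groups did not overlap, but NEG held only 1 to 9 reads per library of this gene of 262 bp. The largest fall was that of gene 707, from 53.6, 59.8 and 112 FPKM to 5.20, 13.4 and 26.9 (−2.28, SE 0.32, limma adjusted p = 4.8e-04), with Val_3 the highest of the Val libraries. Val had the highest mean of the 12 treatments in 43 of the 200 genes (21.5%) and in 7.04% of the annotated genes with at least the mean FPKM of gene 1896. Without the 5 libraries it had the highest mean in 62 of the 200, where the share of annotated genes was not computed.

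Leucine and isoleucine, which like valine have branched side chains, called fewer in these separate fits. In Leu, 97 differed from NEG (52 higher, 45 lower), where 50.3% of all genes were called (20.7% higher, 29.6% lower), and 146 without Leu_1 and NEG_2 (80 higher, 66 lower, with 74.1% of all genes). Scaled by total reads, Leu had 59 higher and 40 lower, where 24.7% of all genes were called higher and 24.0% lower. In Ile, 78 did (38 higher, 40 lower), where 40.9% of all genes were called (15.8% higher, 25.1% lower), and under scaling by total reads there were 47 higher and 30 lower, where that scaling turned the balance of all genes too (20.5% higher, 19.5% lower). Genes 1789 and 1662 had the largest rise and the largest fall in both. Gene 1789 rose to 3.59, 5.76 and 31.1 FPKM in Leu (1.98, limma adjusted p = 0.0032), or by 1.59 without Leu_1, and to 2.63, 4.87 and 8.93 FPKM in Ile (1.57, limma adjusted p = 8.3e-04). Gene 1662, at 9.20, 13.8 and 27.4 FPKM in NEG, fell to 0, 2.65 and 4.94 FPKM in Leu (−2.42, limma adjusted p = 7.3e-04) and to 2.69, 3.45 and 6.11 FPKM in Ile (−1.66, limma adjusted p = 4.7e-04). Both genes are short (262 and 508 bp) and held at most 94 and 188 reads in these libraries.

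Of the basic amino acids, His called 108 (64 higher, 44 lower), where 57.8% of all genes were called (23.4% higher, 34.4% lower). Scaled by total reads, His had 76 higher and 37 lower, where 29.6% of all genes were called higher and 29.3% lower. Lys called 78 (34 higher, 44 lower), where 39.7% were called (13.9% higher, 25.8% lower). Under scaling by total reads there were 42 higher and 33 lower in Lys, where 17.9% of all genes were called higher and 20.9% lower. Arg called 12 (8 higher, 4 lower), where 6.63% of all genes were called (2.29% higher, 4.35% lower), and 51 without Arg_4 and NEG_2 (29 higher, 22 lower, with 25.2% of all genes). The Arg count was between 4 and 7 when Arg_1, Arg_2 or any NEG library other than NEG_2 was left out, where the share of all genes was not computed. It was 0 with the replicate block, where 0.058% of all genes were called. In His, gene 718 rose to 7.01, 9.06 and 9.95 FPKM (1.34, limma adjusted p = 4.6e-04) from 0.856, 3.52 and 4.51 in NEG, and gene 1662 fell to 1.88, 2.71 and 9.07 FPKM (−1.80, limma adjusted p = 4.0e-04). In Lys, gene 1662 fell to 3.85, 4.76 and 7.25 FPKM (−1.36, limma adjusted p = 9.4e-04). The largest rise in Arg was that of gene 1516, from 5.32, 6.49 and 7.08 FPKM to 10.0, 13.1 and 28.3 FPKM (1.07, limma adjusted p = 0.019), with Arg_4 the highest. That call was kept in 9 of the 12 runs that left out a library and lost with the replicate block (limma adjusted p = 0.082). The largest fall in Arg was that of gene 813, given above.

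Methionine called 95 (58 higher, 37 lower), where 47.7% of all genes were called (17.7% higher, 29.9% lower). Scaled by total reads, Met had 64 higher and 28 lower, where 21.5% of all genes were called higher and 25.6% lower. Gene 707 fell to 22.7, 23.9 and 44.2 FPKM (−1.30, limma adjusted p = 5.8e-04), with Met_6 alone above 24.8 FPKM, and the call was lost in a single fit of all 72 libraries (adjusted p = 0.066). Gene 1959 had the largest rise in Met, Lys, Phe and Trp. It was at 0.596, 7.61 and 10.6 FPKM in NEG, where NEG_2 was the lowest, and at 13.8, 16.1 and 20.2 FPKM in Met, 11.7, 14.1 and 17.7 in Lys, 12.7, 16.4 and 18.6 in Phe and 14.7, 19.3 and 25.02 in Trp. The log2 fold changes were 1.36 in Met (limma adjusted p = 0.010), 1.16 in Lys (limma adjusted p = 0.026), 1.31 in Phe (limma adjusted p = 0.046) and 1.57 in Trp (limma adjusted p = 0.0073). Without NEG_2 they were 0.94, 0.75, 0.90 and 1.16, and all 4 passed the threshold. The call in Phe was kept in 2 of the 12 runs that left out a library and in 5 of 9 other settings (limma adjusted p up to 0.11, with the replicate block). The call in Lys was kept in 10 of the 12 and in 8 of the 9 (limma adjusted p up to 0.084, without the filter), and those in Met and Trp in all. These 4 values share the same NEG libraries.

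Of the other 3 EAA, tryptophan called 81 (44 higher, 37 lower), where 42.5% of all genes were called (15% higher, 27.5% lower), or 61 higher and 26 lower under scaling by total reads, where 21.6% of all genes were called higher and 21.3% lower. Its largest fall was that of gene 369, from 30.6, 32.7 and 71.7 FPKM to 7.76, 14.9 and 25.1 FPKM (−1.26, limma adjusted p = 0.0054). Phenylalanine called 36 (18 in each direction), where 12.2% of all genes were called (4.23% higher, 7.97% lower), but 66 without NEG_2 (31 higher, 35 lower, with 34.0% of all genes). The Phe count was as few as 2 when another library was left out, where the share of all genes was not computed. Its largest fall was that of gene 1294, from 2.21, 2.997 and 5.58 FPKM to 1.48, 1.80 and 2.05 FPKM (−0.57, limma adjusted p = 0.041), a call kept in 2 of the 12 runs that left out a library and in 5 of 9 other settings (limma adjusted p up to 0.16). With the replicate block no gene of the 200 was called in Phe, where 0% of all genes were called. Threonine called none (with 0.033% of all genes called), and voom on the recovered reads called 1 (0.149% of all genes). Without NEG_2 the count in Thr was 41 (30 higher, 11 lower, with 21.5% of all genes). Whether the counts of 2 treatments differ was not tested.

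The study's limits of size, a log2 difference over 1 either way and an unadjusted p under 0.05, were then used in place of the adjustment. The study set them on a negative binomial test, and here they were set on limma of log2(FPKM + 1), which shrinks changes at low FPKM. The genes that passed were 32 in POS (10.4% of all genes), 35 in Leu (16.9%) and 31 in Val (11.8%). Fewer passed in His (12, and 4.59% of all genes), Trp (12, 3.09%), Arg (9, 3.15%), Met (9, 3.78%), Lys (5, 1.66%), Ile (4, 1.58%), Thr (4, 0.512%) and Phe (1, 0.38%). The many calls in His, Ile, Lys, Met and Trp were therefore mostly of differences under 1 on the log2 scale. Ranges that did not overlap with NEG were found in 75 genes in Leu (43.1% of all genes), 45 in Val (17.8%), 45 in Lys (26.9%), 40 in His (29.1%), 38 in Ile (26.5%), 37 in Trp (22.8%), 32 in Met (22.3%), 32 in Phe (17.1%), 28 in Arg (14.4%) and 21 in Thr (11.7%). In Val they included 45 of the called genes and in Thr none. A single fit of all 72 libraries called 136 genes in Leu (68.9% of all genes), 121 in Val (59.6%), 112 in POS (47.3%), 77 in His (44.5%), 61 in Met (33.9%), 59 in Arg (27.7%), 52 in Trp (25.9%), 47 in Ile (20.6%), 28 in Lys (10.6%), 10 in Phe (3.58%) and 9 in Thr (3.7%). Without NEG_2 the counts of the 5 treatments not yet given were 123 in His (67.4% of all genes), 90 in Ile (48.3%), 89 in Lys (46.6%), 102 in Met (54.4%) and 84 in Trp (44.8%).

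**Figure D3:**
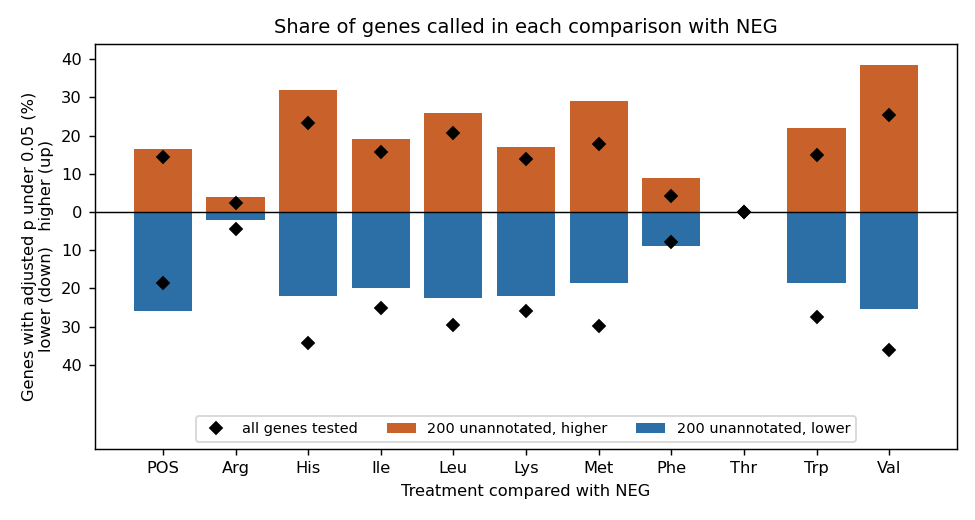
Share of the 200 unannotated genes with a limma adjusted p under 0.05 against NEG, higher (up, orange) or lower (down, blue), in 11 comparisons, and the same share over all 12121 genes tested (diamonds). The bars are longest in Val, with 77 genes higher and 51 lower, and absent in Thr. In 8 of the single-EAA comparisons the share higher is above that of all genes and the share lower is below it, and in POS and Phe both are above it.

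The complete medium was also set against the mean of the 10 single-EAA treatments, which does not use NEG. Here 94 of the 200 were called, 32 higher and 62 lower, where 43.6% of all genes were called, 22.5% higher and 21.1% lower. Without the 5 libraries 125 were called, 42 higher and 83 lower, where 58.8% of all genes were called. Of the 10 highest, gene 1766, gene 1240 (log2 difference −0.70, limma adjusted p = 3.1e-13), gene 1417 (−1.11, limma adjusted p = 5.7e-13) and gene 905 (−0.40, limma adjusted p = 4.8e-04) were lower in POS, and gene 590 was higher (0.29, limma adjusted p = 0.012). POS also had the lowest mean of the 12 treatments in 58 of the 200 genes (29%) and in 16.8% of the annotated genes with at least the mean FPKM of gene 1896. Without the 5 libraries it had the lowest mean in 62 of the 200, where the share of annotated genes was not computed.

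Direction went with the length of the gene. Among the genes called in POS, those higher than in NEG had a median length of 3903 bp and those lower 1528.5 bp. In Val these were 3677 and 1187 bp, in Leu 4009 and 1187 bp, in His 3402 and 1203 bp and in Met 4141.5 and 1145 bp. The annotated genes had the same order, at 3100 against 2069 bp in POS and 3005 against 2087 bp in Val. In Val, 26 of the 35 genes over 5000 bp were called higher and 1 was called lower, where 41.6% of all 1208 genes of that length were called higher and 15.7% lower. In POS 11 of the 35 were called higher and 7 lower, where 26.3% and 8.94% were. A trend on gene length was then removed from each library, a setting added with the results in view. POS called 34 higher and 49 lower, with median lengths of 2916.5 and 2703 bp, and Val called 78 higher and 38 lower, with 2334 and 1203.5 bp. The shares of all genes called were then 34.2% in POS and 63.6% in Val. The order of the lengths turned in Ile (2220 bp higher, 2703 bp lower), Lys (1356 and 2138 bp), Met (1920 and 2308 bp) and Phe (2271.5 and 4580 bp). Of the 85 genes called in POS, 70 were called in the same direction after removal, and of the 128 in Val, 103 were. No gene called in both turned its direction in any of the comparisons. In Phe the count was 15, where 3.71% of all genes were called after removal, so fewer calls were made in both.

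**Figure D4:**
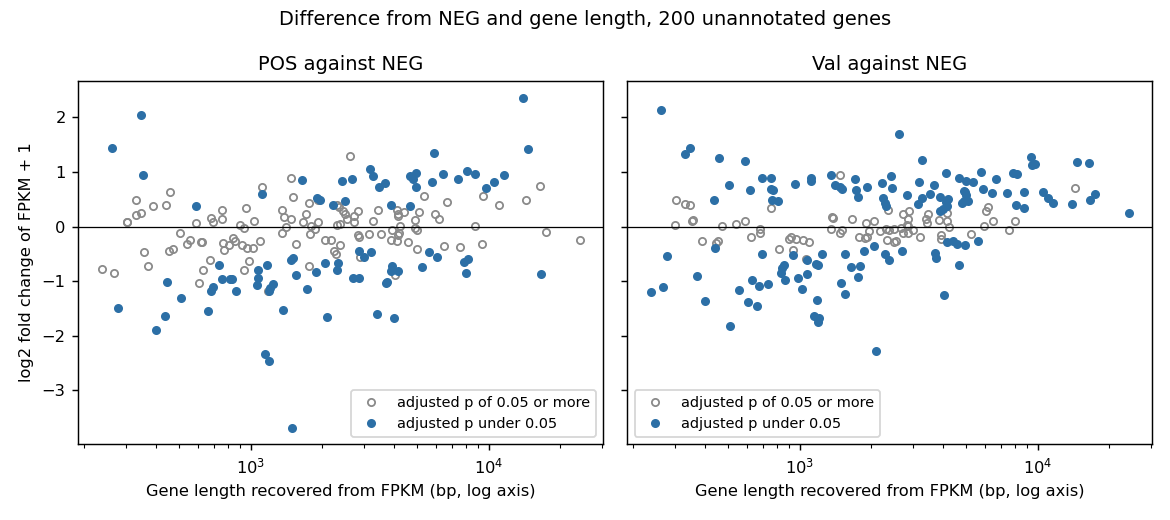
Log2 fold change of FPKM + 1 against NEG and gene length in bp on a log axis for the 200 unannotated genes, in POS (left) and Val (right). Filled points have a limma adjusted p under 0.05. Long genes lie mostly above 0 in Val, where 26 of the 35 over 5000 bp were called higher, and in POS gene 1705 (13971 bp) is the highest point and gene 813 the lowest.

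To see whether the 200 follow annotated genes, each was correlated over the 72 libraries with each of the 11659 annotated genes with a mean of at least 1 FPKM, on log2(FPKM + 1), and the highest Pearson r was kept. As the highest of 11659 values, and because all genes of a library share its depth, RNA and treatment, it is a description and was not tested. Its median over the 200 was 0.86, the lowest was 0.55 and the highest 0.97, and it was over 0.9 in 53 of the 200 (26.5%). Annotated genes set against each other in the same way had a median of 0.90, with 48.9% over 0.9, and the 262 other unannotated genes with a mean of at least 1 FPKM had a median of 0.72. Without the 5 libraries the medians were 0.83, 0.89 and 0.68. With these left out and the mean of each treatment subtracted, the median was 0.72 in the 200 and 0.83 in the annotated genes.

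The comparison was repeated within classes of level. Without the 5 libraries, the median highest r was 0.81 in the 100 genes between 2 and 5 FPKM, against 0.82 in the 1945 annotated genes of that level. From 5 to 10 FPKM it was 0.86 in 44 genes against 0.87, and from 10 FPKM up it was 0.90 in 56 genes against 0.92. The share over 0.9 was 8% against 19.9% in the lowest class, 34.1% against 38.2% in the middle class and 48.2% against 61.5% in the highest, so the medians were close while fewer of the 200 exceeded 0.9 in each class.

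**Figure D5:**
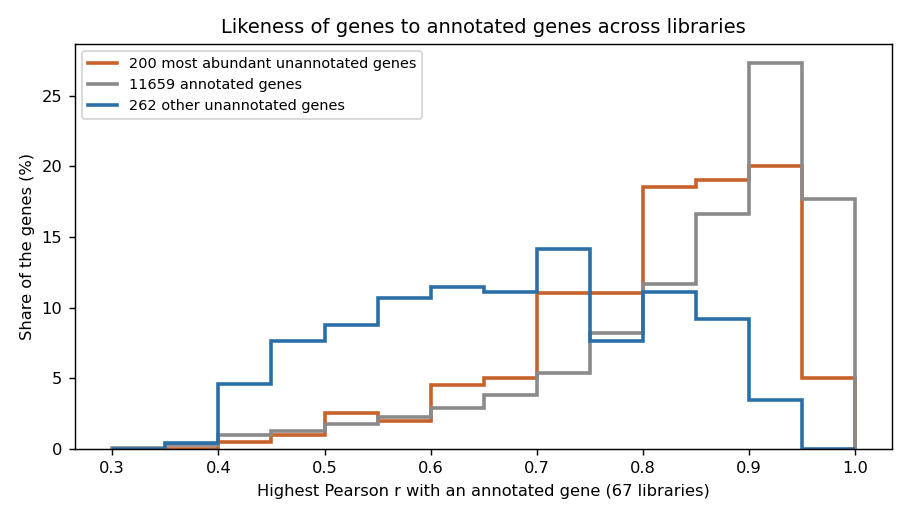
Distribution of the highest Pearson r of a gene with an annotated gene over 67 libraries, as the share of genes in bins of 0.05, for the 200 most abundant unannotated genes (orange), the 11659 annotated genes (grey) and 262 other unannotated genes (blue). The medians are 0.83, 0.89 and 0.68.

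The highest values were those of gene 707 (r = 0.97 over 72 libraries), gene 518 (0.97) and gene 952 (0.96). These followed many annotated genes, with an r over 0.9 for 243, 322 and 238 of them, though for 51, 57 and 259 without the 5 libraries. The highest r was then that of gene 880 (0.98). With treatment means subtracted, the highest r of gene 707 was 0.98, so it varied with annotated genes between replicates too. Its Arg libraries, for example, were at 21.7 and 24.7 FPKM in Arg_1 and Arg_2, 1.34 FPKM in Arg_4 and between 59.2 and 68.8 FPKM in the others. The lowest values were those of gene 561 (0.55), gene 255 (0.55) and gene 1589 (0.59), which had means of 3.11, 3.32 and 2.64 FPKM. Genes 561 and 255 had medians of 15 and 38.5 reads per library, and gene 1589 had 123 reads and means between 2.17 and 2.97 FPKM in all treatments.

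In genes that differed between POS and NEG, the r with a single annotated gene was compared with and without treatment means. Gene 813 had its highest r, 0.93, with ENSBTAG00000013860 (0.96 without the 5 libraries), and that r was 0.62 with treatment means subtracted. Gene 1705 followed ENSBTAG00000011839 (0.94, and 0.86 with treatment means subtracted). The highest r of gene 1853, 0.94, was 0.27 for the same pair once treatment means were subtracted. Gene 1240 had a highest r of 0.80, and for the same pair it was 0.62 with treatment means subtracted, and −0.08 with the 5 libraries left out as well. With both changes the pairs of genes 813, 1705 and 1853 had 0.55, 0.71 and 0.17. Genes 813, 1705, 1853, 1766 and 1240 had an r over 0.9 with 7, 6, 6, 18 and 0 annotated genes, and with 24, 4, 21, 35 and 0 without the 5 libraries. Genes 880 and 590 exceeded it with 102 and 57, and with 405 and 122.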

How the data were processed

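RNA of 72 BMEC libraries was selected with poly-T beads and sequenced in pairs. Per the labels and the study's methods, the authors mapped the reads and deposited FPKM per gene, and the submitters' processing notes list HISAT2 2.0.5, StringTie 1.3.3b, featureCounts 1.5.0-p3 and DESeq2 1.20.0. The study's text instead names cufflinks and htseq-count for the read counts and FPKM, and DESeq for the test. The study's text names a stranded kit and the labels another kit, and the genome build and the use of strand in counting are not given in the sources used here. Gene lengths and reads were recovered by a search for a factor per library and a length per gene that turn the FPKM into whole numbers. A length was kept only where all values of the gene came out whole, so 100% of values whole within 0.001 follows from that rule. A length was found for all 23683 genes above 0 in any library. The library factors in the FPKM scaled with size factors of the median-of-ratios kind rather than with total reads. The recovered totals limit the precision, with fewer than 100 reads in the median library for 62 of the 200 genes.

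Python 3.11.15, R 4.3.3 and limma 3.58.1 with a trended prior were used on log2(FPKM + 1) for genes with a mean of at least 1 FPKM. Each treatment was fitted with NEG alone, and the F test and POS against the 10 single-EAA treatments used all 72 libraries. The Benjamini-Hochberg adjustment covered all 12121 genes and a gene was called under 0.05. The fits and the recovery of reads were tested on simulated data. Replicate numbers are shared by all treatments. Deviations from group means correlated over 0.1 in all 6 pairs with NEG only for Trp (0.10 to 0.24), so a replicate block was run as an alternative.

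Named genes were the 10 highest, the 5 largest rises and falls in POS and the largest in each single EAA among genes called with ranges that did not overlap, the 3 largest F, the 3 highest and lowest r, and the genes on both sides of the rank limit. Other comparisons of these genes were added after their values were seen. The 200 genes and all lists were chosen with earlier results of these data known. Lists of cell type markers and of amino acid response genes could not be used, because 0 of the identifiers matched among 37063 reference genes. The alternatives planned were a pseudocount of 0.1, no filter, 1 fit of all libraries, the block, rescaling on annotated genes, the study's limits and leaving out each library. Added with the results in view were scaling by total reads, voom on the recovered reads, removal of the length trend and leaving out the libraries that stood apart.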

Additional observations from a re-analysis of the deposited data

Results flagged for a closer look

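In 89 groups of 6 libraries, for the summed values and the named genes, 33 held a library whose gap to its nearest neighbour exceeded Dixon's critical share of the group's range. About 4 would do so if the groups were independent and their values normal. The groups share libraries and the genes were picked from these data, so 33 cannot be weighed against that number. In 5 more groups the number of genes above 0 was 200 in all libraries but 1, where any departure passes that limit and no chance share applies. Of all these, 16 fell on NEG_2 and 10 on POS_4, and the cause was not tested.

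In NEG_2 the summed FPKM of the 200 genes was 4203. It was the highest NEG library for gene 160 at 1007 FPKM, gene 905 at 328.9, gene 1536 at 322, gene 13 at 224, gene 880 at 145, gene 590 at 114, gene 707 at 112, gene 1240 at 77.7, gene 369 at 71.7, gene 1766 at 66.9, gene 1662 at 27.4, gene 596 at 13.3 and gene 1294 at 5.58 FPKM. It was the lowest for gene 1417 at 28.7 and gene 1344 at 7.47 FPKM.

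POS_4 gave 0.945% of its reads to the 200 genes and had 188 of them above 0. It was the highest POS library for gene 590 at 203 FPKM, gene 416 at 132, gene 1344 at 69.96, gene 1705 at 54.0, gene 1417 at 52.8, gene 718 at 46.3, gene 298 at 20.95 and gene 813 at 0.873 FPKM.

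Arg_4 had 164 of the 200 above 0, with gene 813 at 0 and gene 1516 at 28.3 FPKM. Leu_1 had 139 above 0, a summed FPKM of 2434 and gene 1789 at 31.1 FPKM. His_5 and Val_6 had 199 above 0. The read share was 0.748% in Lys_1 and 0.6253% in Val_3, the summed FPKM was 2951 in Thr_3, and gene 707 was at 44.2 FPKM in Met_6.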

How the results depend on the processing

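Of 570 repeats of the 57 named differences under other settings, 526 kept their direction and their side of the threshold, 34 no longer passed it, 10 newly passed it and 0 turned. Under the study's limits of size the count of genes called was 32 in POS, 12 in His, 4 in Ile, 35 in Leu, 5 in Lys, 9 in Met, 1 in Phe, 4 in Thr, 12 in Trp and 31 in Val, with the shares of all genes given above. It was 17 for POS against the single EAA, where the share of all genes was not computed. In 1 fit of all 72 libraries it was 136 in Leu, 121 in Val, 112 in POS, 77 in His, 59 in Arg, 47 in Ile, 28 in Lys, 61 in Met, 10 in Phe, 9 in Thr and 52 in Trp, so that Leu and not Val had the most. Arg called 7 with a pseudocount of 0.1 (5.38% of all genes), 7 without the filter (1.86%), 19 with scaling by total reads (16 higher, 3 lower, with 5.08% of all genes higher and 2.85% lower) and 51 without the libraries that stood apart. Phe called 11 without the filter (1.79% of all genes), 66 without NEG_2, 15 with the length trend removed and 20 higher and 12 lower with scaling by total reads (4.48% of all genes higher, 6.68% lower). Thr called 1 with voom (0.149% of all genes), 1 with the length trend removed (0.14%) and 41 without NEG_2 (21.5%). Leu called 146 without Leu_1 and NEG_2. With the replicate block Arg and Phe called 0 (0.058% and 0% of all genes), while 84 were called in Trp (43.5%) against 81 (42.5%). The other comparisons stayed within 1.5 times under the block. Detection in every library rose to 199 genes without the libraries that stood apart. The median highest r was 0.80 on ranks and 0.72 without 5 libraries and with treatment means subtracted.

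Leaving out each library in turn gave 71 to 100 in POS, 4 to 33 in Arg, 91 to 123 in His, 62 to 90 in Ile, 80 to 125 in Leu, 60 to 89 in Lys, 62 to 102 in Met, 2 to 66 in Phe, 0 to 41 in Thr, 59 to 91 in Trp, 114 to 143 in Val and 130 to 160 genes in every library. The share of all genes called was computed only for the runs without NEG_2 in His, Ile, Lys, Met, Phe, Thr and Trp, given above. Whether the other counts moved with all genes is therefore not known. Met was lowest without Met_3. Arg fell to between 4 and 7 without Arg_1, Arg_2 or any NEG library but NEG_2 and rose to 33 without Arg_4. Phe fell to between 2 and 20 without any Phe library, NEG_1, NEG_4 or NEG_5.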
